A study of Mus musculus with 12 samples.

Results

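The receptors through which sensory neurons read neurotrophins and ligands of the GDNF family were followed by 9 genes: Ntrk2, Ntrk3, Ngfr, Sort1, Ret, Gfra1, Gfra2, Gfra3 and Gfra4. They were found by their gene symbols and make up 9 of the 22609 genes listed for each library, and all 9 had enough counts to be tested in every comparison. RNA was sequenced from sensory neuronal fractions of the trigeminal ganglion (TG), which supplies the head, and of dorsal root ganglia (DRG), which supply the body below it. There were 12 libraries in 4 groups of 3 each: female TG, male TG, female DRG and male DRG. By the labels all came from naive wild-type C57BL mice aged 3 to 4 months, while the methods of the study name the substrain C57BL/6J and give a younger age. The methods state that females were in the estrous phase, that the DRG were lumbar, and that the fraction was the layer collected from a Percoll density gradient after enzymatic dissociation. Cutting the axons and dissociating the ganglia therefore preceded every measurement, in all groups alike. Neither source says how many mice went into a library.

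Neurotrophins bind receptor tyrosine kinases of the Trk family, and each Trk receptor prefers certain ligands: TrkB, encoded by Ntrk2, binds BDNF and neurotrophin-4, and TrkC, encoded by Ntrk3, binds neurotrophin-3. The p75 receptor (Ngfr) binds all neurotrophins and, together with sortilin (Sort1), their uncleaved precursors. Ligands of the GDNF family share one signalling kinase, RET, and reach it through GPI-anchored co-receptors: GFRα1 (Gfra1) prefers GDNF, GFRα2 (Gfra2) neurturin, GFRα3 (Gfra3) artemin and GFRα4 (Gfra4) persephin. In adult ganglia Trk and GFRα genes are used by different classes of sensory neurons, such as TrkC by proprioceptors, GFRα2 and RET by non-peptidergic nociceptors and GFRα3 by peptidergic nociceptors. Ngfr is also a gene of Schwann cells, and Ntrk2 has a truncated form made by glia that counts per gene do not separate from the full-length form.

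The libraries held 7511765 to 15396090 reads assigned to genes, and 3 counts, taken as the limit that a count of 0 allows, corresponded to 0.207 to 0.357 counts per 1000000 reads in genes (CPM). Reads outside annotated genes made up 43.5 to 50.4% of reads in and outside genes in female libraries and 37.6 to 47.9% in male libraries. A principal component analysis set female DRG 1 apart on the first axis (25.1% of the variance) and female TG 3 on the third axis (14.6%). Transcripts of the X and Y chromosomes matched the labelled sex in all 12 libraries. The summed level of 10 neuronal markers was 6405 to 11629 CPM, and none of them was at 0 in any library. Markers of other cells were present as well, with sums of 1865 to 2549.7 CPM for 7 Schwann cell genes, 1210 to 2412 CPM for 6 satellite glia genes and 618 to 2192 CPM for 6 fibroblast genes. These are therefore enriched and not pure neurons, and in such bulk fractions fewer cells of one type and less RNA per cell cannot be told apart.

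The first question is how the receptors rank against each other, which was read from CPM per kilobase of exon, since the members' exon lengths run from 1.99 kb (Gfra3) to 15.1 kb (Ntrk2). Ret had the highest level per kilobase of the 9 genes in each of the 4 groups, at the 96.1th percentile of 14595 expressed genes, with Ngfr next by group mean at the 92.8th percentile. In female TG, Ret had 128 ± 32.1 CPM per kilobase (SD, n = 3), and Ngfr had 68.0 ± 14.0. In male TG the same levels were 94.3 ± 7.55 and 31.3 ± 12.3, and in both TG groups the lowest Ret library was above the highest Ngfr library. In female DRG Ret had 73.3 ± 4.36 CPM per kilobase and Ngfr 72.0 ± 1.24, and in male DRG 55.6 ± 9.07 and 45.7 ± 4.85. The ranges of these 2 genes overlapped in both DRG groups, so that their order there is not larger than the spread between libraries. In male TG, Ngfr, at 22.3 to 45.3 CPM per kilobase, overlapped Ntrk2, at 26.3 to 30.1, and their order is likewise within the spread.

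Ntrk2, Ntrk3, Gfra1, Gfra2, Gfra3 and Sort1 formed a middle tier, with group means between 15.2 CPM per kilobase (Sort1 in male DRG) and 37.6 (Gfra3 in female TG), at the 79.0th to 85.1th percentiles. Within each group, every gene of this tier overlapped its neighbour in the order, so ranges over libraries do not settle the exact ranks inside the tier. Compared within libraries, some neighbours kept their order. In female TG 1 to 3, Gfra3 had 37.1, 46.6 and 28.9 CPM per kilobase and Gfra2 30.7, 35.5 and 20.4. Others did not, such as Gfra2 and Gfra3 in female DRG, where library 3 had 33.3 and 33.6 against the order of the means. Leading the tier were Gfra3 in female TG, Ntrk2 in male TG, Gfra2 in female DRG and Gfra1 in male DRG. Gfra4 was lowest in every group, with means of 0.300 to 1.30 CPM per kilobase and a percentile of 13.3. These levels assume that all annotated exons of a gene are used.

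**Figure D1:**
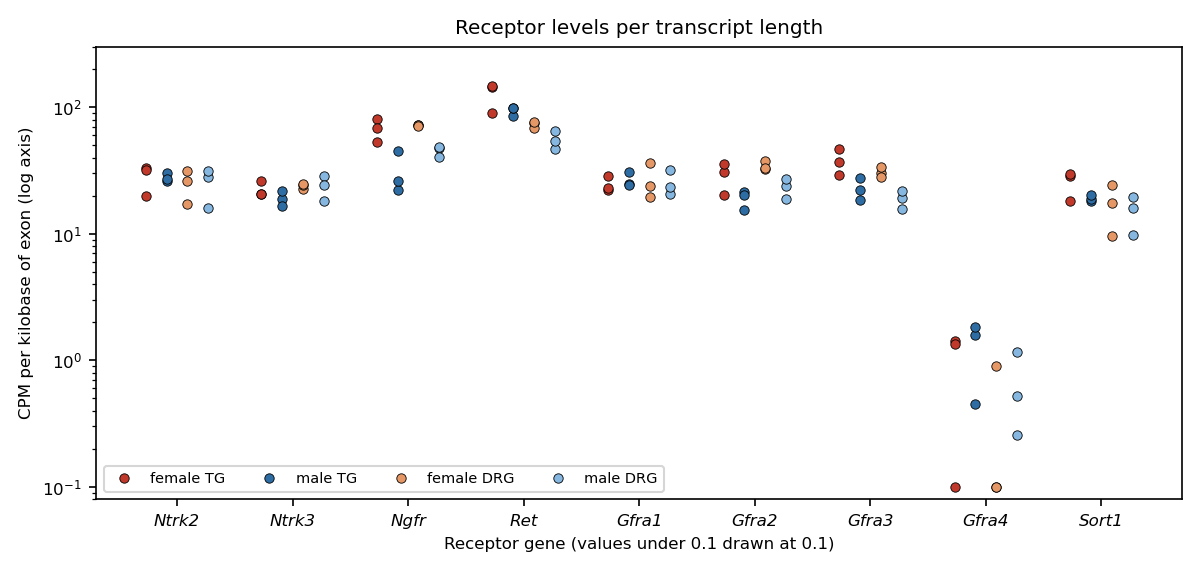
Level of each receptor gene in every library, as CPM per kilobase of exon on a log axis, with 1 point per library and colours for the 4 groups. Ret is the highest gene in all 4 groups, 6 genes share a middle tier, and Gfra4 lies far below them, with 3 libraries at 0 drawn at the lower edge.

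Between the ganglia, Ret was the one receptor gene called, and it was higher in TG. Its level was 1056.5, 1088 and 665 CPM in the female TG libraries 1 to 3, and 629, 721 and 729 CPM in the male TG libraries. In female DRG it was 551, 502 and 563 CPM, and in male DRG 346, 401 and 479 CPM. All 6 TG libraries thus lay above all 6 DRG libraries. The TG mean was 815 ± 203 CPM and the DRG mean 474 ± 85.1 CPM (SD, n = 6 each), and the fitted log2 fold change was 0.78 (SE 0.17, 95% interval 0.42 to 1.14), or 1.72-fold. With edgeR's quasi-likelihood test over 14829 genes the Benjamini-Hochberg adjusted p was 0.0307. Among all genes tested 0.964% were called, 0.627% with the higher level in TG, and 0.998% were higher in TG without overlap between the ganglia.

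The direction of Ret was the same in each sex, with log2 fold changes of 0.81 in the 6 female libraries and 0.75 in the 6 male libraries, although with 6 libraries neither passed the threshold in the same test (adjusted p = 0.860 and 0.306). The call was kept under the other scalings, with DESeq2 and with the offset for GC content and gene length, where the log2 fold change was 0.64 and the adjusted p by edgeR 0.0248. It also held without the 2 libraries that stood apart (log2 fold change 0.89, adjusted p by edgeR 0.00650). It was lost when any 1 of 9 libraries was left out, with adjusted p of 0.0506 to 0.132 and log2 fold changes of 0.72 to 0.81, and kept without female DRG 3, female TG 3 or male DRG 3. With a block for replicate number, which the main test leaves out, Ret was called at an adjusted p of 0.000453 by edgeR. Without the block, the size of the difference was thus steadier than its call.

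The other 8 receptor genes were not called between the ganglia, and the edgeR adjusted p ranged from 0.622 to 0.9998. In TG Ngfr averaged 171 ± 80.4 CPM, and in DRG it averaged 203 ± 50.9 CPM (SD over 6 libraries), which gave a log2 fold change of -0.32 (95% interval -0.72 to 0.08). For Sort1, the sorting receptor, the values were 168 ± 41.1 and 123 ± 43.7 CPM (log2 fold change 0.44, interval -0.04 to 0.93). The TrkB gene Ntrk2 had 424 ± 73.2 and 378 ± 104 CPM, and the TrkC gene Ntrk3 109 ± 16.5 and 125 ± 17.8 CPM. Their log2 fold changes were 0.17 and -0.20.

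Among the co-receptors, Gfra1 averaged 140.1 ± 18.2 CPM in TG against 142 ± 36.4 CPM in DRG, so its log2 fold change was -0.03, with an interval of -0.42 to 0.37. Gfra2 had 84.2 ± 26.6 and 102 ± 24.4 CPM (log2 fold change -0.28, interval -0.67 to 0.10), and Gfra3 had 60.2 ± 20.4 and 49.4 ± 13.8 CPM (0.28, interval -0.11 to 0.68). None of these intervals reaches the fitted value of Ret. Gfra4 had 35, 36 and 0 counts in female TG, 38, 58 and 10 in male TG, 0, 0 and 23 in female DRG and 27, 12 and 7 in male DRG. Its fitted log2 fold change of 1.29 had an SE of 1.23, and at these counts a difference between the ganglia was not detectable.

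**Figure D2:**
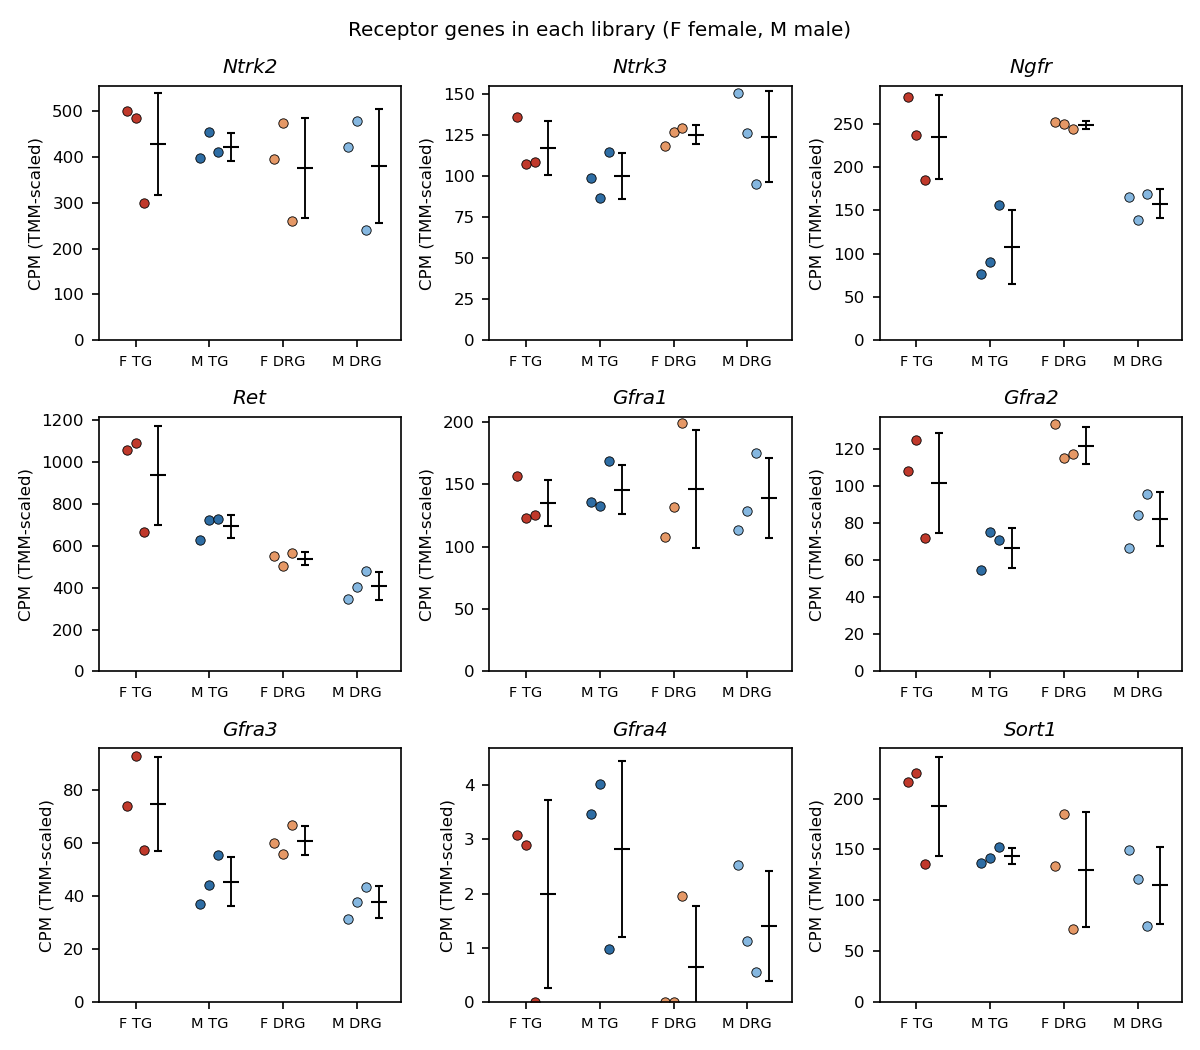
TMM-scaled CPM of each of the 9 receptor genes in every library, with a linear axis from 0, 1 point per library, and the group mean with 1 SD (n = 3) beside the points. Ret separates TG from DRG, Ngfr and Gfra3 separate females from males in both ganglia, and the other genes overlap between the ganglia and in at least one ganglion between the sexes.

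Because RET works together with a co-receptor, ratios between the genes were taken within each library, where the scaling between libraries cancels. The ratio of Ret to Gfra2 per kilobase was 4.68, 4.17 and 4.44 in female TG and 5.52, 4.60 and 4.93 in male TG. In female DRG it was 1.98, 2.09 and 2.30, and in male DRG 2.48, 2.28 and 2.40. The TG mean was 4.72 ± 0.466 and the DRG mean 2.25 ± 0.188 (SD, n = 6 each), with no overlap and a relative spread smaller than that of either gene alone. Over 11424 other genes with a mean above 5 CPM, 1.98% had a ratio to Gfra2 that was higher in TG without overlap. The same separation held for Ret against the sum of Gfra1, Gfra2 and Gfra3, at 1.25 to 1.49 in TG and 0.743 to 0.854 in DRG. Per kilobase, the kinase gene was thus above the 3 co-receptor genes together in all TG libraries and below them in all DRG libraries. These ratios were chosen after the levels were seen and carry no test, and no share over other genes was taken for the ratio to the sum.

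**Figure D3:**
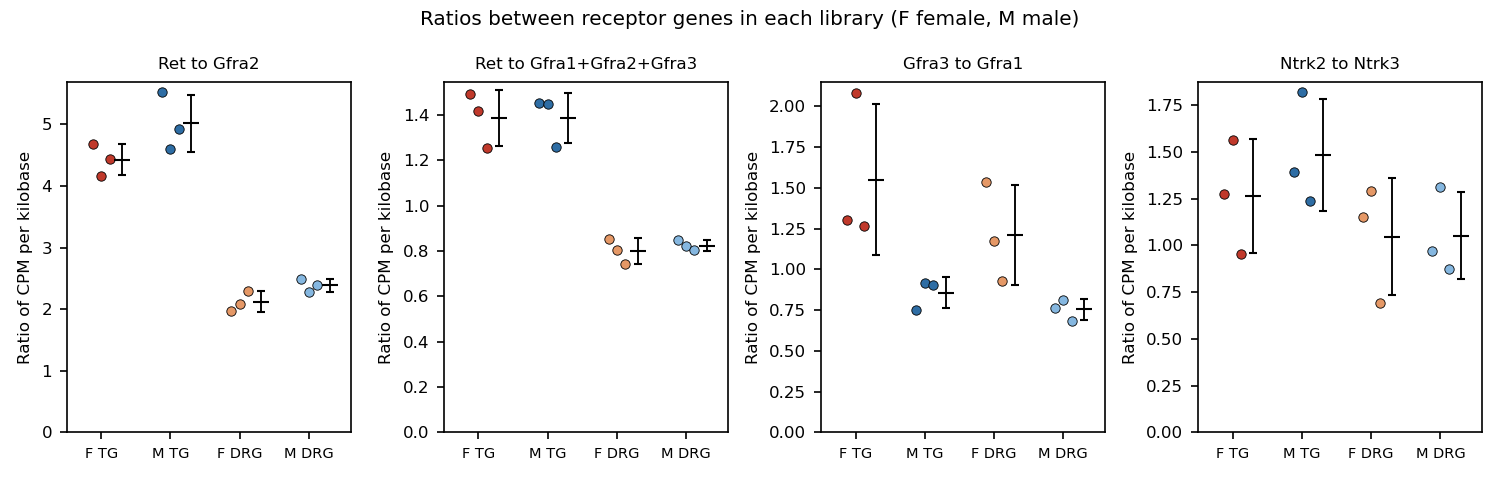
Ratios between receptor genes in each library, as CPM per kilobase of the first gene over that of the second (linear axes from 0), with the mean and 1 SD of the 3 libraries of each group. The ratio of Ret to Gfra2 lies at 4.17 to 5.52 in TG and at 1.98 to 2.48 in DRG, the ratio of Gfra3 to Gfra1 is higher in females in each ganglion, and the ratio of Ntrk2 to Ntrk3 overlaps.

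Per kilobase, Ntrk2 over Ntrk3 had a range of 0.956 to 1.82 among TG libraries and of 0.693 to 1.31 among DRG libraries. The ranges overlapped, so the balance of the TrkB and TrkC genes did not separate the ganglia.

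Genes whose profile over the 12 libraries was closest to that of Ret were Tln2, Ube4b and Ank1, by the root mean square difference of log2 CPM centred on each gene's mean. The differences were 0.170, 0.180 and 0.182, against a median of 0.683 over 11429 candidates, while Ret itself varied around its own mean by 0.477. Because these genes were picked for matching Ret in the same 12 libraries, a higher level in TG is largely built into the choice. Their fold changes and adjusted p are therefore descriptions and not separate evidence of a shared difference. Among them Ank1, which encodes an ankyrin of the membrane skeleton, was called higher in TG (log2 fold change 0.90, edgeR adjusted p = 0.0307). Tln2 and Ube4b had log2 fold changes of 0.65 and 0.62 and adjusted p of 0.0546 and 0.0761 in that test.

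Between the sexes in TG, Ngfr stood first among the receptor genes, with a higher level in females. It had 281, 237 and 185 CPM in female TG and 76.7, 90.4 and 156 CPM in male TG. The lowest female library was above the highest male library, and male TG 3 was nearest to the females. The means were 234 ± 48.2 and 108 ± 42.4 CPM (SD, n = 3 each), the log2 fold change was 1.17 (SE 0.30, 95% interval 0.51 to 1.83), and the unadjusted p in edgeR's quasi-likelihood test was 0.00255. After Benjamini-Hochberg adjustment over all genes the p was 0.154. Neither Ngfr nor any other gene outside the sex chromosome transcripts passed, although 20.7% of 14004 genes had an unadjusted p under 0.05 and DESeq2 called 812 of the 10744 genes it gave an adjusted p, 3.43% with the higher level in females. In DESeq2 Ngfr was the receptor gene called (log2 fold change 1.15, adjusted p = 0.0126).

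The study selected genes by fold change, unadjusted p and level, and its criteria were adapted here as a fold change above 2, an unadjusted p under 0.05 by edgeR in place of DESeq and a mean above 1 CPM in the higher sex in place of RPKM. By these adapted criteria 1033 genes (7.38%) were selected in TG, 5.14% of all tested with the higher level in females. Ngfr was the one receptor gene of 9 that met them. The background for these counts depends on the scaling: 720 of the 1033 genes were higher in females, and 1030 of 1189 when library totals were used without a scaling factor.

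The co-receptor genes Gfra3 and Gfra2 were next. Gfra3 had 73.9, 92.9 and 57.6 CPM in female TG and 37.0, 44.2 and 55.5 CPM in male TG. The sexes did not overlap, which held for 12.3% of all genes in this direction, and the log2 fold change was 0.77 (SE 0.27, unadjusted p = 0.0169 and adjusted p = 0.180 by edgeR). Gfra2 had 108, 125 and 71.7 CPM in females and 54.5, 75.0 and 70.8 CPM in males. Its sexes overlapped through female TG 3, and the log2 fold change was 0.66 (SE 0.27, unadjusted p = 0.0331 and adjusted p = 0.211 by edgeR).

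Ret had a log2 fold change between the sexes in TG of 0.49 (95% interval -0.04 to 1.02) and Sort1 of 0.47 (-0.07 to 1.02). Sort1 had 216, 225 and 136 CPM in female TG and 137, 141 and 153 CPM in male TG, so that female TG 3 lay just below the lowest male library. The Trk genes were close between the sexes. Ntrk2 had 500.1, 483 and 299 CPM in females and 397, 455 and 411 CPM in males (log2 fold change 0.08, interval -0.46 to 0.61), and Ntrk3 had 136, 107 and 109 CPM against 99.0, 86.8 and 115 CPM (0.27, interval -0.23 to 0.77). Gfra1 had 156, 123 and 125 CPM in females and 136, 132 and 168 CPM in males (log2 fold change -0.06, interval -0.55 to 0.43).

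Female TG 3 decided much of this comparison. Without it, the edgeR test called Ngfr (log2 fold change 1.27, adjusted p = 0.0117), Gfra2 (0.80, 0.0231), Gfra3 (0.87, 0.0242), Ret (0.63, 0.0248) and Sort1 (0.62, 0.0324) higher in females. That fit, with 2 female libraries, also called 3389 genes in all, which is 23.6% of those tested, with 10.8% higher in females. The 5 of 9 receptor genes called in that fit stand beside this broad background.

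The offset for GC content and gene length, which removes smooth differences between libraries along those properties, moved the same genes toward 0. With it the log2 fold change in TG was 0.49 for Ngfr (GC content 58.6%), 0.38 for Gfra3 (57.2%), 0.36 for Gfra2 (53.1%), 0.08 for Ret (51.9%) and 0.18 for Sort1 (50.4%). The unadjusted p for Ngfr was then 0.0685 by edgeR, and it no longer met the fold criterion.

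**Figure D4:**
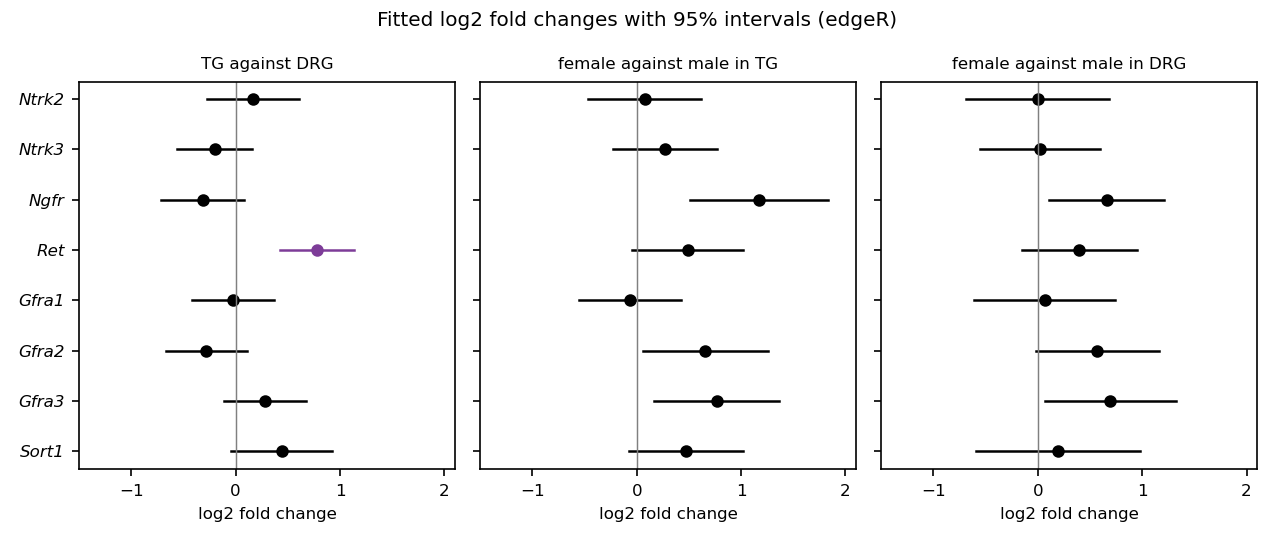
Fitted log2 fold changes (points) with 95% intervals (lines) from edgeR for 8 receptor genes in 3 comparisons, with positive values for higher levels in TG or in females and the gene called in purple. Gfra4 is left out because its interval runs past 3 on either side in DRG. The interval of Ret between the ganglia lies above 0, and the intervals of Ngfr and Gfra3 between the sexes lie above 0 in both ganglia.

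In DRG the receptor genes with ample counts that lay farthest apart between the sexes were again Ngfr and Gfra3, both higher in females. Ngfr had 251, 250.0 and 243 CPM in female DRG and 165, 138 and 169 CPM in male DRG. Female libraries lay close together and above all male libraries, with means of 248 ± 4.26 and 158 ± 16.7 CPM (SD, n = 3 each). The log2 fold change was 0.66 (SE 0.25, 95% interval 0.11 to 1.21, unadjusted p = 0.0220 and adjusted p = 0.352 by edgeR), and no gene was called in DRG, where 11.8% of 13958 genes had an unadjusted p under 0.05 and DESeq2 called 345 genes. None of the 9 receptor genes met the adapted criteria in DRG, as against 4.94% of genes, or 2.01% with the higher level in females. Of the 689 genes that met them, 280 were higher in females, and with library totals alone 582 of 743 were.

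Gfra3 had 60.2, 56.0 and 66.9 CPM in female DRG and 31.6, 38.0 and 43.6 CPM in male DRG, without overlap (log2 fold change 0.69, SE 0.29, unadjusted p = 0.0326 and adjusted p = 0.386 by edgeR). For Gfra2 the levels were 133, 115 and 117 CPM against 66.7, 84.2 and 95.7 CPM (log2 fold change 0.57, interval -0.02 to 1.16). Ret had 539 ± 32.0 CPM in females and 409 ± 66.6 in males (log2 fold change 0.40, interval -0.15 to 0.95). The sexes did not overlap for these 4 genes, higher in females each time, which was the case for 7.46% of all genes in DRG.

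The remaining receptor genes overlapped between the sexes in DRG. Ntrk2 had 395, 473 and 259 CPM in females and 421, 478 and 240.1 CPM in males, and its log2 fold change of 0.00 had an interval of -0.68 to 0.69. Ntrk3 had 119, 127 and 129.8 CPM against 151, 127 and 95.7 CPM (0.02, interval -0.55 to 0.60). Gfra1 had 108, 131 and 199 CPM against 113, 128 and 175 CPM (0.06), and Sort1 133, 185 and 72.3 CPM against 149, 121 and 74.6 CPM (0.19). For these 4 genes the differences were within the spread, and intervals this wide leave room for a change of up to 0.60 (Ntrk3) to 0.98 (Sort1) on the log2 scale.

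Ngfr and Gfra3 were the 2 of 9 receptor genes whose female libraries lay above all male libraries in both ganglia, which 2.23% of 13563 genes did. In a fit of all 12 libraries that averages the sex effect over the ganglia, an alternative added after seeing the data, Ngfr (log2 fold change 0.89, edgeR adjusted p = 0.0203) and Gfra3 (0.70, adjusted p = 0.0343) were called. Gfra2 (0.59, adjusted p = 0.0560) and Ret (0.42, adjusted p = 0.125) were not. That fit called 7.85% of all genes, 2.38% with the higher level in females. With the offset for GC content and gene length the DRG values were 0.40 for Ngfr and 0.76 for Gfra3, so Gfra3 kept its size in DRG while Ngfr was lower.

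**Figure D5:**
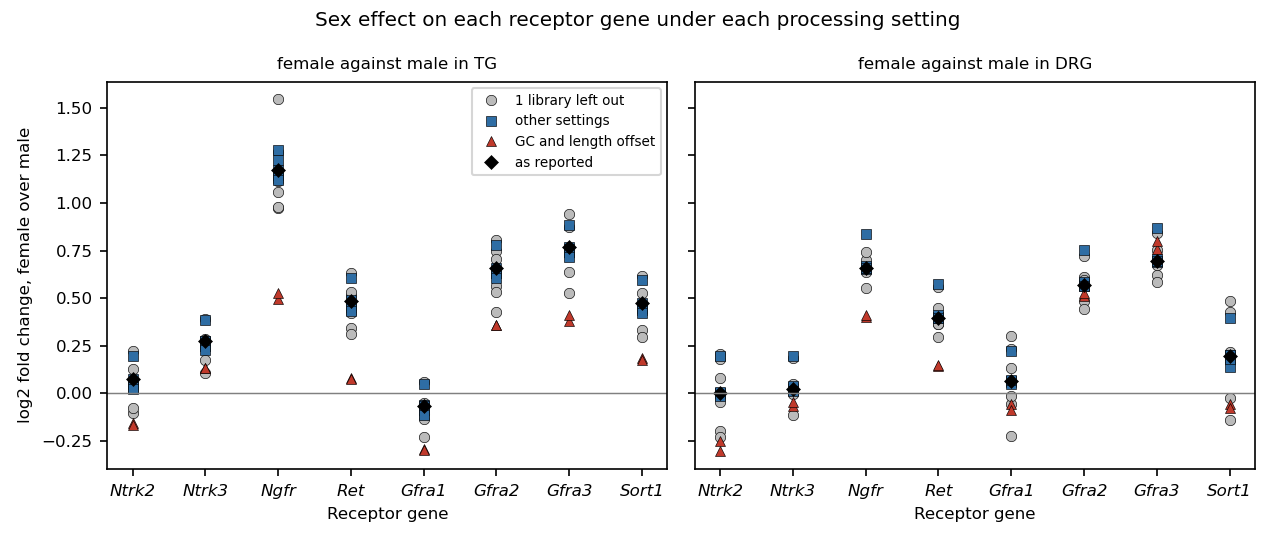
Log2 fold change of female over male for 8 receptor genes under each processing setting, in TG (left) and DRG (right): diamonds as reported, triangles with the GC and length offset, squares for other settings and circles with 1 library left out. Ngfr, Ret, Gfra2 and Gfra3 stay above 0 throughout in both ganglia, and in TG the triangles lie below the diamonds for each gene.

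The sex effect was not shown to differ between TG and DRG for any receptor gene. For Ngfr the difference between the effects was 0.47 on the log2 scale (95% interval -0.33 to 1.27, unadjusted p = 0.237 and adjusted p = 0.9998 by edgeR), and for Gfra3 it was 0.02. The adjusted p was 0.9998 for each of the 9 genes. Over all genes the same test called 0 of 14829, with 1.97% at an unadjusted p under 0.05 and 0 by DESeq2.

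Within the co-receptors, the balance moved with sex. The ratio of Gfra3 to Gfra1 per kilobase was 1.26 to 2.08 in female TG and 0.748 to 0.919 in male TG, and 0.926 to 1.54 in female DRG and 0.684 to 0.814 in male DRG. In both ganglia females lay above males without overlap, which held for the ratio to Gfra1 of 0.910% of 11424 other genes. As a share of the 4 co-receptor genes, Gfra3 made up 37.9 to 44.0% in female TG, 30.7 to 35.2% in male TG, 32.3 to 34.4% in female DRG and 26.9 to 28.5% in male DRG. The ratio of Gfra2 to Gfra1 separated the sexes in TG (0.892 to 1.59 against 0.6255 to 0.883) and overlapped in DRG (0.917 to 1.93 against 0.851 to 1.02). These are descriptions, with no test, and a share over other genes was taken only for the ratio to Gfra1 in both ganglia.

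Some markers of other cells moved with sex beside these genes. In TG, 2 of 7 Schwann cell markers (Prx and Cldn19), 3 of 6 fibroblast markers, 2 of 6 macrophage markers, 1 of 4 mural cell markers and 0 of 6 endothelial markers met the adapted criteria with higher levels in females, against 5.14% of all genes. In DRG these counts were 0 of 7 Schwann cell, 1 of 6 fibroblast, 2 of 6 macrophage, 1 of 4 mural cell and 3 of 6 endothelial markers, as well as 1 of 10 neuronal markers, against 2.01% of all genes. Of the satellite glia markers 0 of 6 met the criteria in either ganglion, and of the neuronal markers 0 of 10 did in TG. Pmp22, a myelin gene of Schwann cells, was lower in all female than in all male libraries in TG (log2 fold change -0.52) and in DRG (-0.50). Over all 7 Schwann cell genes the sum was 1865 to 2323 CPM in female TG, 2001 to 2392 in male TG, 2073 to 2429 in female DRG and 2129.5 to 2549.7 in male DRG, with overlap in each ganglion. The mean log2 CPM of the same genes, in which each gene weighs alike, was 6.16 to 7.16 in female TG and 5.69 to 6.79 in male TG, with overlap, and 6.30 to 6.85 in female DRG and 5.95 to 6.21 in male DRG, higher in all females. Macrophage sums were 146 to 301 CPM in female TG and 59.0 to 137 in male TG, and 80.3 to 216 in female DRG and 65.6 to 88.1 in male DRG. Endothelial sums were 369 to 604 CPM in female TG and 286 to 416 in male TG, and 300.2 to 591 in female DRG and 181 to 329.8 in male DRG. For fibroblasts they were 1031 to 1677 CPM in female TG and 618 to 1406 in male TG, and 1460 to 2192 and 1028 to 1612 in DRG. Mural cell sums were 195 to 309 CPM in female TG and 191 to 288 in male TG, and 240 to 483 and 184 to 244 in DRG. The part of Schwann cells and of the other cell types in the values of Ngfr was not tested.

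Apart from Bdnf, the ligand genes followed here were scarce in the same fractions. Bdnf, the TrkB ligand that some sensory neurons make themselves, had 93 to 496 counts per library, averaging 18.6 ± 4.64 CPM over the TG libraries and 22.8 ± 10.3 over the DRG libraries (SD, n = 6 each). Its log2 fold change between the ganglia was -0.27 (interval -0.88 to 0.34), and between the sexes it was -0.10 in TG and -0.56 in DRG, none called. Ntf3, the TrkC ligand, had 0 to 53 counts, and Ntf5, listed under the older symbol of neurotrophin-4, 0 to 2. Of the GDNF family, Gdnf had 0 to 7 counts, Nrtn 0 to 8, Pspn 0 to 4 and Artn 0 in all 12 libraries, which allows up to 0.357 CPM in the shallowest of them. Gdf15, a distant relative, had 0 to 30 counts, and between the ganglia edgeR gave it an adjusted p of 0.548 (0.0451 before adjustment). Counts of all these ligand genes but Bdnf were thus low. Ntf5, Gdnf, Nrtn, Artn and Pspn had too few counts to be tested, as had Ntf3 for sex in TG and Gdf15 for sex in either ganglion, and no ligand gene was called in the comparisons in which it was tested.

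Other receptors and co-receptors of the pathways, such as sortilin relatives and the heparan sulfate carrier Sdc3, and the adaptors that link the receptors to signalling were followed as lists. Between the ganglia 0 of 13 tested co-receptor genes and 0 of 26 tested adaptor genes were called, against 0.964% of all genes. Their median log2 fold changes were 0.13 and 0.11, against -0.01 over all genes. By the adapted criteria, Sorcs2 (log2 fold change 1.03), a sortilin relative, and Sdc3 (1.07) were higher in female TG, with a list median of 0.39 against 0.05 over all genes. Both were low in female TG 3, at 20.2 and 115 CPM, where the other female TG libraries had 70.3 and 78.9 CPM of Sorcs2 and 330.2 and 421 CPM of Sdc3. Of 25 adaptor genes tested between the sexes, 1 met the adapted criteria in TG, against 7.38% of all genes, and 1 in DRG, against 4.94%. Sh2b1, an adaptor of Trk kinases, had a log2 fold change of 1.41 in TG (adjusted p = 0.154 by edgeR), and Ngfrap1, named for its association with p75, one of -1.21 in DRG (adjusted p = 0.307 by edgeR), so neither was called.

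Of 13 tested transcription factors linked to these receptors, 2 were called between the ganglia, against 0.964% of all genes. In TG Meis2 averaged 39.1 ± 4.37 CPM, and in DRG 12.1 ± 3.76 (SD, n = 6 each, log2 fold change 1.70, edgeR adjusted p = 0.00141). Etv1, which proprioceptors require and whose expression depends on neurotrophin-3, had 31.0 ± 6.20 CPM in TG and 69.3 ± 6.51 in DRG (-1.16, adjusted p = 0.00255). The runt factors were not called. Runx1, which non-peptidergic nociceptors require, had a log2 fold change of -0.51 (adjusted p = 0.382 by edgeR). Runx3, which proprioceptors require, had one of 0.15 with an SE of 1.13. Mafa (7.86, SE 1.81, adjusted p = 0.0609 by edgeR) and Maf (0.81, adjusted p = 0.179) were not called either, and both overlapped between the ganglia. Of the 13 factors, 7 had positive values. At an unadjusted p under 0.05 by edgeR, 3 were higher in TG and 3 lower.

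Some genes of the neuron classes that carry the receptors also differed between the ganglia, beside the difference in Ret. The share called over all genes was 0.964%. Among 9 genes of non-peptidergic nociceptors, the class known for RET and GFRα2, Mrgprd fell to 149 ± 17.8 CPM in TG from 255 ± 51.0 in DRG (log2 fold change -0.78, edgeR adjusted p = 0.0307), the list's median was -0.50, and 1 gene of 9 had a positive value. For Ret itself the value in the same comparison was 0.78. In C-fibre low-threshold neurons, which also use RET and GFRα2, Th fell by 3.50 on the log2 scale from DRG to TG and was the 1 gene of 4 called (adjusted p = 1.39e-07 by edgeR). Of 9 genes of low-threshold neurons and proprioceptors, Ntng1 was called higher in TG (1.75, adjusted p = 0.000601 by edgeR). That list as a whole had a median of 0.05, with 5 of 9 values positive. Pvalb, of the same list, had -1.10 and was not called (adjusted p = 0.175 by edgeR). Of 5 peptidergic genes Calcb (-1.10, 0.0132) and Trpv1 (-0.76, 0.0425) were called higher in DRG. Of 3 genes of cold-sensing neurons Trpm8 was higher in TG (2.65), and 0 of 6 genes of itch neurons were called. Whether the makeup of neuron classes has a part in the value of Ret was not tested.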

How the data were processed

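Per the labels and the methods of the study, total RNA of sensory neuronal fractions was depleted of ribosomal RNA, made into dUTP stranded libraries and read as single reads. The authors aligned them with TopHat2 to mm9 and counted reads per gene with HTSeq; versions and the strand setting of the counting are not given in the sources used here. The deposited files hold these raw counts, 1 file per library, for 22609 genes, with reads outside genes listed separately and left out of library sizes. Groups and numbers were taken from the sample titles. Members and gene lists were chosen with earlier results of these data known.

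Counts were fitted with edgeR 4.0.16 (quasi-likelihood test, TMM scaling, filterByExpr) in R 4.3.3, without a replicate block. TG was compared with DRG, and the sex effect between ganglia, in 1 model that gave each group a mean over the 12 libraries. The sexes were compared in the 6 libraries of each ganglion. The Benjamini-Hochberg adjustment covered all genes tested, and genes with an adjusted p under 0.05 were called. Counts of sex differences leave out Xist and Tsix of the X chromosome and Ddx3y, Eif2s3y, Kdm5d and Uty of the Y chromosome. SE is the log2 fold change over the root of F. Printed CPM are TMM-scaled over all 12 libraries. Exon lengths, GC content and positions were taken from the GENCODE mm9 annotation, which matched 21627 genes (95.7%). The offset for GC content and length is a natural spline with 5 degrees of freedom for each, per library. DESeq2 1.42.0 was an alternative. In the closest-profile search genes had a mean above 5 CPM. All 9 members were named in every comparison, as were the ligand genes, and from other lists the genes called between ganglia or meeting the adapted criteria for sex. Runx1, Runx3, Mafa, Maf and Pvalb were named beyond this rule. The study applied its criteria to RPKM and DESeq p-values, here replaced by CPM and edgeR. Genes of cell markers were named after their values were seen. Some genes of the lists are not reported here. In simulated counts with each gene's own mean and spread, 100 genes were changed by 1 and 100 by 2 on the log2 scale. These were drawn from genes with a mean above 5 CPM. The TG against DRG test recovered 44% and 94% of them, with 6 false calls among 14435 genes tested. The same values were 19 and 81% for sex in TG (8 false calls, 13613 genes) and 10 and 70% for sex in DRG (6 false calls, 13393 genes). The rates do not cover genes at lower levels, such as Gfra4. Libraries were drawn independently, so none was made to stand apart.

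The sources do not say that replicates come from separate animals, so p-values measure the spread between these libraries, which may be partly technical. Limits at 0 cover counting error only, while intervals of fold changes include the spread between libraries. Reads of Gfra1 and Sort1 overlap annotated antisense genes (Gm16277 and Gm12523), and without a stated strand setting these cannot be told apart.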

Additional observations from a re-analysis of the deposited data

How the results depend on the processing

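Of 648 receptor gene results under other settings, 557 kept their direction and their side of the threshold, 11 lost a call (all of them Ret between the ganglia), 11 gained one and 69 changed sign. The fit that averages the sex effect over the ganglia entered once under TG and once under DRG. Its calls of Ngfr and Gfra3 are thus counted under each ganglion among the 11 gained. Depth limits Gfra4 and the ligands. With 1 library left out the TG against DRG count of 143 ranged from 77 (without male DRG 2) to 231 (without female TG 3), the sex count in TG of 0 from 0 to 3389 (without female TG 3) and in DRG of 0 from 0 to 5 (without female DRG 3). The count by the adapted criteria ranged from 580 (without female TG 2) to 2527 (without female TG 3) around 1033 in TG, and from 372 (without male DRG 2) to 1580 (without female DRG 3) around 689 in DRG. An arm left with 2 libraries was fitted with the spread shared over groups.

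The TG against DRG count was 218 with no filter on low counts, 333 with DESeq2, 5 in females and 58 in males alone, and 344 without female DRG 1 and female TG 3, an exclusion added after seeing the data. Genes called for sex in TG numbered 4 with no filter, 812 with DESeq2 and 1 in the model of all 12 libraries, and in DRG 345 with DESeq2. Averaged over both ganglia, also added after seeing the data, the sex effect called 1164 genes. With the GC and length offset 293 genes met the adapted criteria in TG and 419 in DRG. Without TMM factors the median over all genes of the log2 fold change between the sexes was 0.16 in TG and 0.19 in DRG, against 0.05 and 0.02. The cause of these moves was not tested.

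Replicate numbers were checked for pairing: same-numbered libraries had correlations of their deviations from -0.098 to 0.216, and no set of 3 was above 0.1 throughout. In females against males every library correlated best with its own number in DRG (6 of 6) and none in TG. In TG against DRG 4 of 6 did in each sex. The check was thus mixed and does not settle whether libraries of one number belong together. As the sources state no pairing, the main tests were run without a block. In all 4 groups the counts of library 3 differed more from those of libraries 1 and 2 (chi-square per degree of freedom 54.1 to 110.4) than these did from each other (13.8 to 32.2). A replicate block raised the TG against DRG count to 562, and to 653 together with the GC and length offset. With both, the adapted criteria selected 267 genes in TG and 367 in DRG. Ret kept its call with the block (adjusted p = 0.000453 by edgeR), and Ngfr gained one with both (log2 fold change -0.52, adjusted p = 0.00768 by edgeR). The block turned Gfra1 between the ganglia to 0.0018, and the differences in sex effect to -0.011 for Ntrk2 and -0.0042 for Ret. With the block and the offset the sex effect was -0.17 for Ntrk2 in TG, and in DRG -0.25 for Ntrk2, -0.044 for Ntrk3, -0.084 for Gfra1 and -0.077 for Sort1, and the difference in sex effect was -0.071 for Ret, -0.17 for Gfra2 and -0.38 for Gfra3.

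None of the other reversals was called. Gfra1 between the ganglia was 0.035 without TMM factors and 0.056 in males alone, and its sex effect 0.050 in TG without TMM factors and -0.021 averaged over the ganglia. For Ntrk2 the DRG sex effect was -0.0031 with no filter and -0.016 in the model of all 12 libraries. With the GC and length offset the sex effect was -0.16 for Ntrk2 in TG, and in DRG -0.30 for Ntrk2, -0.068 for Ntrk3, -0.055 for Gfra1 and -0.058 for Sort1, and the difference in sex effect was -0.063 for Ret, -0.16 for Gfra2, -0.37 for Gfra3 and -0.34 for Gfra4. With 1 library left out the ranges of the genes that reversed were -0.11 to 0.12 for Gfra1 between the ganglia, -0.10 to 0.22 for Ntrk2, -0.23 to 0.060 for Gfra1 and -0.96 to 0.077 for Gfra4 for sex in TG, and -0.23 to 0.21 for Ntrk2, -0.11 to 0.19 for Ntrk3, -0.22 to 0.30 for Gfra1 and -0.14 to 0.48 for Sort1 in DRG. For the difference in sex effect they were -0.17 to 0.28 for Ntrk2, -0.092 to 0.23 for Ret, -0.38 to 0.11 for Gfra1, -0.14 to 0.24 for Gfra2, -0.16 to 0.24 for Gfra3, -0.16 to 6.51 for Gfra4 and -0.048 to 0.58 for Sort1.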

Other observations

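The positions of the 9 genes on mm9 place them on 9 chromosomes: Ntrk2 on chromosome 13 (58907957 to 59235331), Ntrk3 on 7 (85337248 to 85723294), Ngfr on 11 (95430132 to 95449049), Ret on 6 (118101766 to 118147762), Gfra1 on 19 (58310094 to 58530399), Gfra2 on 14 (71289927 to 71379645), Gfra3 on 18 (34849557 to 34880041), Gfra4 on 2 (130865368 to 130868824) and Sort1 on 3 (108087009 to 108164429). All are protein coding, and none lies on a sex chromosome.

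The ratio of Ngfr to Ntrk2 per kilobase was 2.15 to 2.71 in female TG and 0.846 to 1.66 in male TG, without overlap, and 2.31 to 4.12 in female DRG and 1.27 to 3.08 in male DRG, with overlap. For Ngfr over Sort1, its partner for uncleaved neurotrophins, the ratio was 2.32 to 2.98 in female TG and 1.23 to 2.24 in male TG, and 2.97 to 7.38 in female DRG and 2.43 to 4.97 in male DRG. Gfra1 made up 21.1 to 31.7% of the 4 co-receptor genes in female TG and 34.7 to 41.0% in male TG, and 22.4 to 34.9% and 35.0 to 39.3% in DRG. In TG its share was lower in all female than in all male libraries. In DRG the ranges nearly met, at 34.87% in female DRG 3 and 34.995% in male DRG 2. As parts of one sum, the shares of Gfra1 and Gfra3 are not independent. No share over other genes was taken for these ratios and shares, and they carry no test. Calb1, a gene of some low-threshold neurons, and Nppb, a transmitter gene of itch neurons, met the adapted criteria in DRG with higher levels in males (log2 fold changes -1.38 and -1.02), and Calcb, the gene of beta-CGRP, did so in TG (-1.11).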
